A study of Mus musculus with 70 samples.

Results

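The ventral tegmental area (VTA) was represented by 3 of the 57 libraries made from adult mouse brain and of the 70 libraries of the series in all. The VTA libraries were taken by their tissue label and set against the 54 libraries of the 17 other adult regions, with each region given the same weight. All adult libraries came from untreated P56 mice of the C57BL/6 strain (males of the C57BL/6NTac substrain) that carried no transgene, so the groups differed in the region that was punched. RNA came from punch biopsies of thick frozen sections, and each library pooled the punches of 3 or 4 mice, except 1 nucleus accumbens library made from 1 mouse. The same mice gave punches of several regions. The spread between libraries is therefore a spread between pools, and it may be technical in part. The study built this atlas to describe gene expression in brain regions that act in energy balance, and the VTA stood in it for the reward system.

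The VTA lies in the ventral midbrain and is known for its dopamine neurons, which project to the nucleus accumbens and the prefrontal cortex and take part in reward, motivation and feeding. These neurons make dopamine from tyrosine with tyrosine hydroxylase (Th) and aromatic amino acid decarboxylase (Ddc), load it into vesicles with the vesicular monoamine transporter (Slc18a2) and take it back up with the dopamine transporter (Slc6a3). GABA and glutamate neurons lie among them, and the red nucleus, oculomotor and Edinger-Westphal nuclei, raphe, interpeduncular and supramammillary nuclei and several fiber tracts lie nearby.

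The adult libraries held 13409041 to 20647884 estimated counts, and the VTA libraries 19285427, 17938125 and 18524408. Levels are given as TPM, a share of all transcripts in a library that takes transcript length into account, rescaled to the same total in each library after the mitochondrially encoded (mt-) genes were taken out. The rescaling mattered because VTA replicate 1 stood apart: mt- genes took 39.6% of its deposited TPM, against 6.03% and 14.2% in VTA replicates 2 and 3 and 5.55% to 13.5% in the other adult libraries. The mean share was 19.9% ± 17.5 (SD, n = 3) in VTA and 8.05% over the other region means, a difference of 11.9 percentage points that fell to 2.06 points without VTA replicate 1. No test is given for this share, since replicate 1 had been singled out by it. In the same library Gm11027, a predicted gene, took 14.9% of the rescaled TPM, against 0.0941% and 1.12% in the other VTA libraries and at most 0.870% elsewhere. Genes with at least 1 TPM numbered 14319, 14976 and 14685 in the VTA libraries and 14718 to 15693 in the others. Over the tested genes, VTA replicate 1 correlated with replicates 2 and 3 at r = 0.930 and 0.956, and replicates 2 and 3 correlated at 0.973. The nearest library to VTA replicate 2 was a parabrachial nucleus library (PB, r = 0.976). The part of the mt- share in each result was not tested, and the main counts over all genes are therefore given also without VTA replicate 1. The study spread the punches of VTA and of other regions over several shared batches. The sources used here did not tie a batch to a single library by name, so no value within a batch was computed, and the part of batches in the results was not tested.

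**Figure D1:**
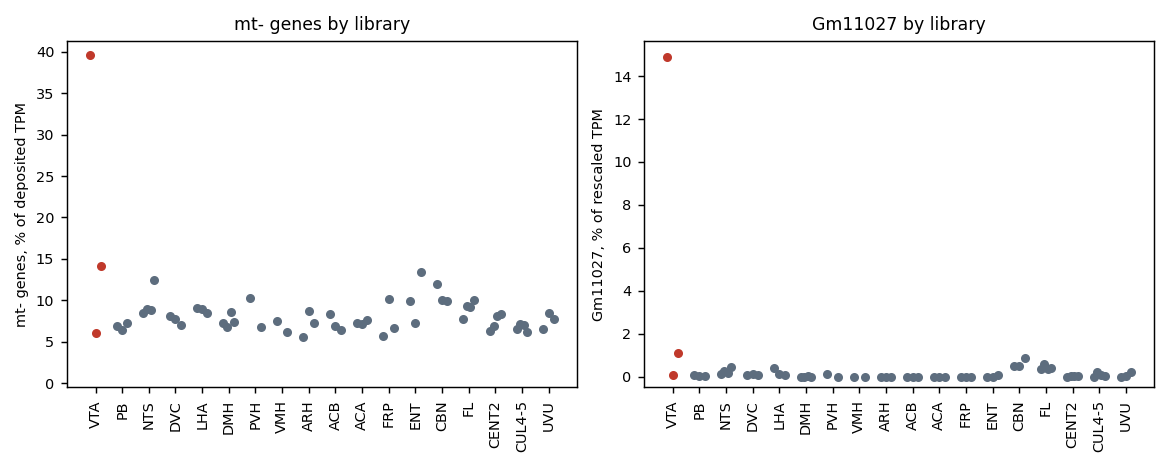
Each point is 1 of the 57 adult libraries, with VTA in red. The left axis gives the share of deposited TPM on mt- genes in percent, where VTA replicate 1 stands at 39.6% and no library outside VTA exceeds 13.5%, and the right axis gives the share of rescaled TPM on Gm11027 in percent, which is 14.9% in VTA replicate 1.

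The label was checked with Th and Slc6a3, and both stood far above every other region. The Th levels in VTA replicates 1 to 3 were 395, 828 and 1050 TPM, while the other 54 libraries ranged from 0.669 to 112 TPM with a median of 14.9. No library outside VTA reached the lowest VTA library. Slc6a3 stood at 287, 554 and 648 TPM in VTA, against 0 to 8.37 TPM elsewhere with a median of 0.282. Again the groups did not overlap. The log2 difference between VTA and the mean of the 17 region means was 5.53 ± 0.435 (SE) for Th and 8.82 ± 0.191 for Slc6a3, with adjusted p of 1.06e-13 and 1.55e-33 (limma). Without VTA replicate 1, which was the lowest of the VTA libraries for both genes, the differences were 5.95 and 9.18. A bulk punch does not separate fewer cells of a type from less RNA per cell, and this holds for every difference below.

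The order of the other regions was not the same for both genes. For Th, PB followed VTA with 85.0 ± 24.1 TPM (SD, n = 3), then the ventromedial (VMH, 76.4), arcuate (ARH, 65.1) and dorsomedial hypothalamic nuclei (DMH, 61.2), and the means of these 3 nuclei lay within 1 SD of PB. The anterior cingulate area (ACA) had the lowest Th mean, 0.958 TPM. For Slc6a3, ARH followed with 7.47 ± 1.23 TPM (SD, n = 3) and the lateral hypothalamic area (LHA) with 3.27 ± 1.24, and every other region mean was at most 1.28 TPM. PB, second for Th, had 1.13 TPM of Slc6a3. PB held Dbh, the enzyme that makes noradrenaline from dopamine, at 123 TPM. All 3 VTA libraries were listed at 0 for Dbh.

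Th lies on the reverse strand of chromosome 7 (7:142892752-142931128, GRCm38), Slc6a3 on the forward strand of chromosome 13 (13:73536747-73578672) and Slc18a2 on the forward strand of chromosome 19 (19:59260896-59296012). The 250 bases before the RefSeq start of these genes are shown because the 3 proteins make, take up and store dopamine and their transcripts were high together in VTA. The sequences are RefSeq windows of GRCm38.p6, at chr7:142899996-142900245 (reverse strand) for Th, chr13:73536497-73536746 (forward) for Slc6a3 and chr19:59260628-59260877 (forward) for Slc18a2, written 5′ to 3′. Capitals mark TGACGTCA, the palindromic cyclic AMP response element.
Th: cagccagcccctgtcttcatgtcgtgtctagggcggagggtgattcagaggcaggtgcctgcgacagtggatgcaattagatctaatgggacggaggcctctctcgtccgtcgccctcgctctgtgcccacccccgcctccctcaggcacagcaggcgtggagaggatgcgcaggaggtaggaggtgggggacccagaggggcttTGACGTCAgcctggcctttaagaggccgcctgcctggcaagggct
Slc6a3: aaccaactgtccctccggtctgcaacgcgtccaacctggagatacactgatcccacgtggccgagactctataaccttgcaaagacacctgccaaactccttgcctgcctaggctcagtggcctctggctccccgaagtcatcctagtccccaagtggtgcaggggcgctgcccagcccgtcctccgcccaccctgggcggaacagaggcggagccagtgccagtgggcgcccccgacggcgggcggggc
Slc18a2: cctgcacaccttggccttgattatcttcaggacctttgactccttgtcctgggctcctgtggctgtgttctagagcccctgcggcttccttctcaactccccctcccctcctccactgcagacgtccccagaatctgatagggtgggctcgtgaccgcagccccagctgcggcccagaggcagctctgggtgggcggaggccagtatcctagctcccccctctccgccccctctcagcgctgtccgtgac
The element was found in the Th window, 45 bases before the start, and not in the other 2 windows. It was present in 508 of 32851 windows of this length (1.55%) on either strand. The other letters searched on both strands were AAGGTCA (4.08% of all windows), TAATTA (4.84%), TAATCC (6.25%), TGTTTAC (3.17%) and TATAAA (12.4%), and none of them was in these 3 windows. A match is a description of the letters and not of a bound site.

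**Figure D2:**
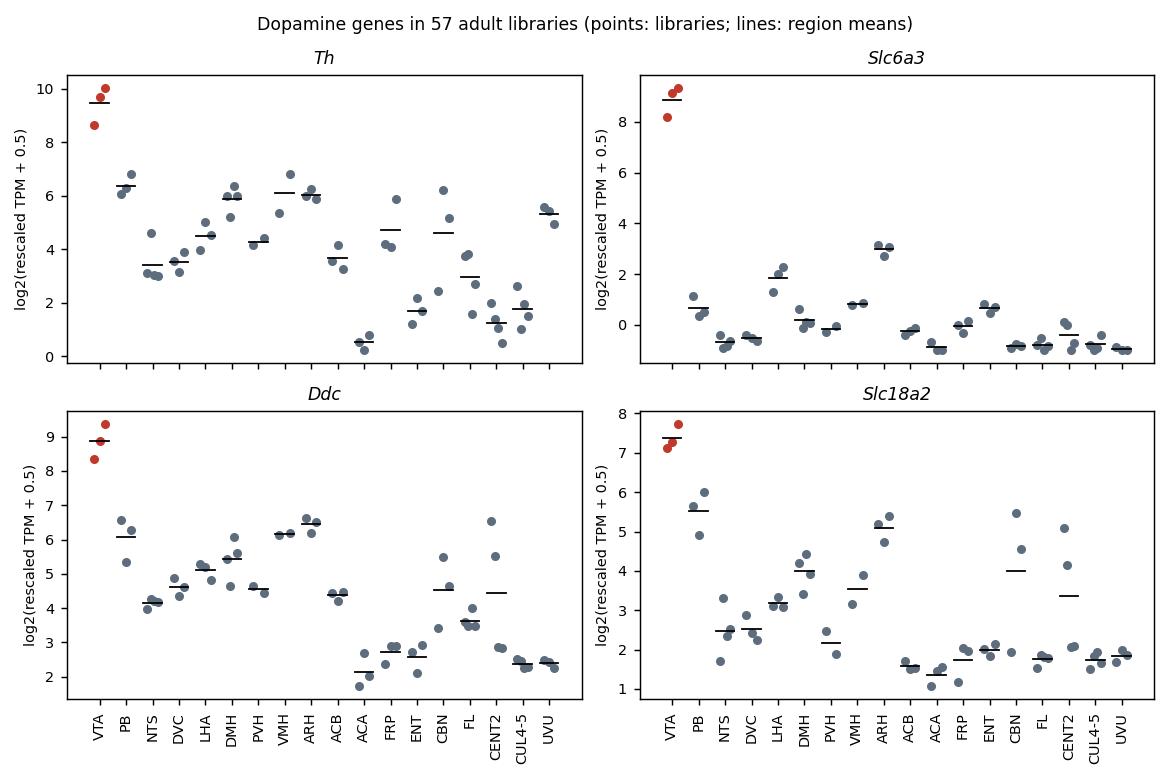
Each panel gives log2(rescaled TPM + 0.5) of a dopamine gene in the 57 adult libraries, with points for libraries, lines for region means and VTA in red. For Th, Slc6a3, Ddc and Slc18a2 the 3 VTA libraries lie above all 54 others, with Th at 395 to 1050 TPM in VTA and at most 112 TPM elsewhere.

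Across all genes, a gene was called higher or lower in VTA where the limma test gave an adjusted p under 0.05 and a log2 difference beyond 1. Of 19356 tested genes, 466 (2.41%) were called higher and 1139 (5.88%) lower. These shares are the background for the counts of every list below. The median log2 difference of all tested genes was -0.27, so a typical gene lay somewhat below its level elsewhere on this scale. With each library centred on its own median the split turned to 855 higher and 465 lower. All 466 genes called higher were also called after centring, and so were 465 of the 1139 genes called lower. Without VTA replicate 1 there were 450 higher and 675 lower genes, of which 328 and 581 were also called with it, and without VTA replicate 2 there were 586 and 2156. For genes of the lists below, calls that centring removed were all of the lower kind, and they are given where the gene is described.

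Few genes set VTA apart from every region. In 44 genes (0.227%) VTA was called higher against each of the 17 regions taken singly, or in 35 genes without VTA replicate 1 and 91 without VTA replicate 2. In 58 genes (0.300%) every VTA library exceeded every other adult library, and 52 of these were among the genes called higher. This number was 117 after centring, 92 without VTA replicate 1 and 238 without VTA replicate 2. In 91 genes (0.470%) every VTA library lay below every other library, and 34 of these were called lower. That number was 18 after centring, and it was 129, 861 and 184 without VTA replicates 1, 2 and 3.

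The 13 tested genes of dopamine synthesis, storage and uptake had a median log2 difference of 2.53, against -0.27 over all tested genes, and 7 of them were called higher and none lower. Ddc stood at 329, 468 and 666 TPM in VTA and at 2.80 to 98.9 TPM elsewhere, with ARH next (87.7). Slc18a2 stood at 139, 155 and 213 TPM against 1.60 to 64.2, with PB next (47.8). In both genes the groups were apart, and the log2 differences were 4.65 ± 0.377 (SE) and 4.57 ± 0.391. Gch1, whose enzyme begins the synthesis of the tetrahydrobiopterin that Th needs, had 9.84, 23.9 and 18.9 TPM in VTA and at most 8.65 elsewhere. The log2 difference of Gch1 was 2.97 ± 0.279, while the later enzymes of the same cofactor, Pts and Spr, were not called (-0.01 and -0.48). Qdpr, which recycles the cofactor, missed the size limit with all libraries (0.84) and passed it without VTA replicate 1 (1.42). Aldh1a1, an aldehyde dehydrogenase of dopamine neurons, had 590, 817 and 809 TPM and reached 537 TPM at most elsewhere. The degrading enzymes Maoa and Maob were not called, with log2 differences of 0.17 and -0.16.

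Drd2, the dopamine receptor that also serves as an autoreceptor, was high in VTA but not highest there. Its levels were 104, 89.2 and 109 TPM, and the nucleus accumbens (ACB), the main target of VTA neurons, had 157 ± 22.9 TPM (SD, n = 3). All other region means were at most 24.6 TPM, and the log2 difference to the mean of the regions was 3.95 ± 0.348 (adjusted p = 2.22e-12, limma). Drd1, the receptor of the direct pathway of the striatum, was called lower in VTA (0.820, 0.611 and 0.883 TPM, with 150 TPM in ACB), and its log2 difference of -1.12 was -0.81 after centring, short of the limit.

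Of the 11 transcription factors that specify or maintain midbrain dopamine neurons, 10 were called higher and none lower, with a median log2 difference of 2.37. The forkhead factors Foxa2 and Foxa1 and the homeobox gene En1 had the largest differences of the list. Foxa2 was at 17.9, 17.9 and 15.97 TPM in VTA, and no other adult library exceeded 0.805 TPM. Foxa1 was at 27.9, 15.6 and 21.6 TPM, and the highest value elsewhere was 5.89 TPM in an LHA library. The log2 differences were 5.05 ± 0.142 (SE) and 4.83 ± 0.162. En1, an engrailed homeobox gene of the midbrain and hindbrain, had 41.6, 46.2 and 57.4 TPM and was next highest in PB (19.01 ± 5.07, SD, n = 3).

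Pitx3, a homeobox gene of midbrain dopamine neurons, was at 3.22, 14.1 and 22.4 TPM in VTA and at most 1.61 TPM elsewhere, with a log2 difference of 3.92 ± 0.319 (SE). VTA replicate 1 was the lowest for Pitx3, as for Th and Slc6a3, and the difference was 4.69 without it. Lmx1b (2.87), Bnc2 (2.18) and Lmx1a (1.96) were also higher, although DMH had a higher Lmx1a mean than VTA (5.39 against 4.78 TPM). Nr4a2, an orphan nuclear receptor needed for Th expression, had 86.4, 38.4 and 43.5 TPM, below the entorhinal area (ENT, 77.7 ± 35.8, SD, n = 3) in its mean. Otx2 and En2 were higher than the mean of the regions (1.72 and 1.66) but far below the uvula of the cerebellum (UVU), where they reached 51.7 and 95.7 TPM. Sox6, a factor more of substantia nigra than of VTA neurons, was the member not called, with 7.16, 6.55 and 10.9 TPM and a log2 difference of 0.20.

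Among 22 surface, subtype and co-transmitter genes of dopamine neurons, 16 were called higher and 1 lower, with a median of 2.30, and without VTA replicate 1 the numbers were 15 and 1. Ret, the receptor through which GDNF acts, was at 185, 220 and 242 TPM against 1.12 to 73.6 elsewhere, a log2 difference of 3.90 ± 0.173 (SE). Its co-receptor Gfra1 differed less (1.32), and PB (52.8 TPM) lay at the level of VTA (51.6). Slc10a4, a vesicle protein of monoamine and cholinergic neurons, had 125, 140 and 180 TPM, with PB next at 67.3. Against PB alone the difference of Slc10a4 was 1.12 with an adjusted p of 0.403 (limma), although no PB library reached a VTA library.

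Gucy2c, the guanylate cyclase C receptor, was at 9.44, 16.6 and 20.2 TPM and did not exceed 3.21 TPM elsewhere (log2 difference 4.23 ± 0.185, SE). Dlk1, a membrane protein related to Notch ligands, had 248, 175 and 251 TPM against 152 in ARH, and its lowest VTA library and the highest ARH library were both at 175 TPM after rounding. AC165954.1 had the same values as Dlk1 in every library, so that the reads of these entries cannot be told apart. Sncg (gamma-synuclein) had 429, 374 and 548 TPM and overlapped with the dorsal-vagal complex (DVC, 370 TPM). Cplx1, a complexin of synaptic vesicle release, reached 3584, 1973 and 3422 TPM, all above the highest library elsewhere (1794). The members that mark subtypes of VTA neurons differed among themselves. Slc17a6, the vesicular glutamate transporter of subcortical neurons, was called higher (1.64), Aldh1a7 (3.07), Ndnf (2.45), Grp (1.97) and Anxa1 (1.58) as well, while Cck, Vip and Neurod6 were not called (-0.15, -0.44 and -0.32), with their highest means in cortical regions. The Slc17a6 call was lost without VTA replicate 1, where the difference was 1.53 with an adjusted p of 0.0762. Calb1, the calbindin of VTA neurons and of Purkinje cells, was the member called lower (-1.52), with 94.0, 65.0 and 37.0 TPM in VTA and 914 TPM in central lobule II of the cerebellum (CENT2).

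Nicotinic acetylcholine receptors of dopamine neurons are known to carry subunits that most neurons lack. Of the 9 subunit genes, 6 were called higher and none lower, with a median of 2.34. Chrna6 was at 77.2, 102 and 121 TPM in VTA and at most 7.96 TPM elsewhere, and Chrnb3, its neighbor on chromosome 8, at 44.6, 33.8 and 37.5 TPM against at most 5.61. The highest library outside VTA was from PB for both. Their log2 differences were 6.46 ± 0.304 (SE) and 5.18 ± 0.266. Chrna5 (3.38) and Chrna4 (2.44) also stood above every other library, with 7.52 to 12.6 and 110 to 141 TPM in VTA. Chrnb2, the subunit common to most brain receptors, was not called (-0.14), with 24.5, 40.4 and 34.6 TPM in VTA within the range of 22.6 to 57.3 elsewhere. Chrna7 and Chrnb4 were not called either (0.53 and -0.26).

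**Figure D3:**
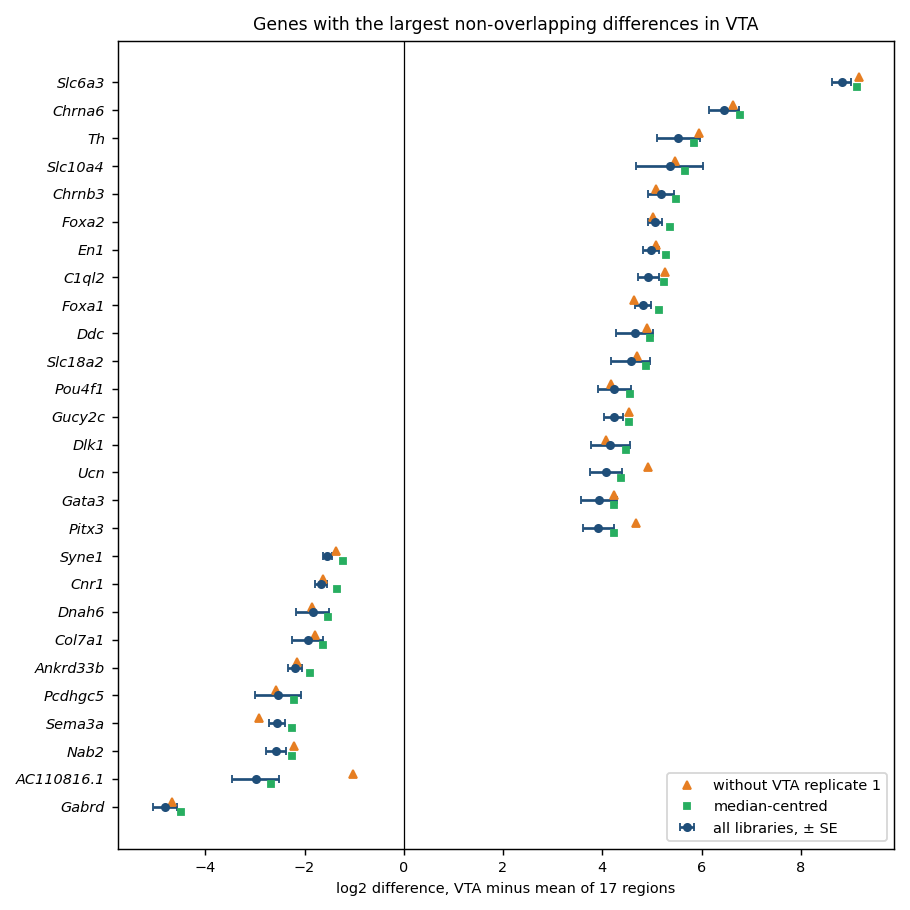
Log2 differences of the genes with the largest non-overlapping differences are plotted as VTA minus the mean of 17 regions, with bars for the SE, triangles for values without VTA replicate 1 and squares for median-centred values. Slc6a3 (8.82) and Chrna6 (6.46) lead the genes higher in VTA, and Gabrd (-4.81) those lower in VTA, while AC110816.1 moves from -2.99 to -1.03 without VTA replicate 1.

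The channels thought to set the pacemaking of dopamine neurons were not high as a group. Of 16 genes, 2 were called higher and 2 lower (3 and 3 without VTA replicate 1), beside shares of 2.41% and 5.88% over all tested genes. Their median of -0.27 equalled that of all tested genes. Kcnd3, which carries the A-type potassium current, had 119, 53.8 and 95.3 TPM, above the 51.01 TPM of the highest library elsewhere (log2 difference 1.49 ± 0.137, SE). Kcnn3, a calcium-activated potassium channel, was higher than the mean of the regions (1.08), with a VTA mean of 23.6 TPM and an ACB mean of 28.0. The L-type calcium channel genes Cacna1d (7.60, 6.97 and 7.31 TPM, against 6.53 to 40.4) and Cacna1c (8.12, 9.62 and 8.75 TPM, against 8.65 to 40.1) had log2 differences of -1.21 and -1.06 and were called lower, but not after centring (-0.90 and -0.75). Kcnj6 (GIRK2) was not called (0.57), with 16.3 ± 2.47 TPM (SD, n = 3) in VTA and 27.7 in ACA.

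None of 15 genes of inherited Parkinson disease was called, and their median was -0.21. Lrrk2, a kinase gene of that list, had 8.36, 14.2 and 10.9 TPM, with 49.9 in ACB, and a difference of -0.85.

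Receptors for appetite hormones, peptides and opioids were mixed, in that 6 of 30 were called higher and 4 lower, with a median of -0.13. The shares over all tested genes were 2.41% higher and 5.88% lower. Ntsr1, the high-affinity neurotensin receptor, was at 34.6, 42.0 and 50.1 TPM and at most 16.1 TPM elsewhere, a log2 difference of 3.58 ± 0.210 (SE). Tacr3, the neurokinin receptor, was at 30.0, 27.9 and 26.0 TPM and at most 18.2 elsewhere, in LHA. These 2 genes separated VTA from every library. Ghsr, the ghrelin receptor, had 4.43, 3.87 and 4.27 TPM and was second to ARH (7.52), with a log2 difference of 2.18 ± 0.131 (SE). Oprk1, the kappa opioid receptor (1.70), Crhbp, which binds corticotropin-releasing hormone (1.17), and the orexin receptor Hcrtr1 (1.14) were higher than the mean of the regions, with their highest means in ACB, ENT and PB.

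Cnr1, the cannabinoid receptor, was on this scale lower in VTA than in any other library, at 16.2, 17.6 and 17.4 TPM against 18.3 to 213 (log2 difference -1.67 ± 0.121, SE). The margin was narrow, since the nucleus of the solitary tract had a mean of 21.7 TPM. After centring, only 18 genes lay below all other libraries, against 91 before. Ramp3, an accessory protein of the amylin receptor, had 0.269, 1.42 and 1.32 TPM, with 92.1 in the paraventricular hypothalamic nucleus (PVH), and a difference of -3.34. Crhr2 (-1.09) and Npy2r (-1.01) were called lower as well, but neither after centring (-0.78 and -0.70) nor without VTA replicate 1 (-0.80 and -0.96), where the list had 2 lower genes. The leptin receptor Lepr was not called (0.51), with 2.94, 1.89 and 7.49 TPM in VTA and 8.30 in ARH. The insulin receptor Insr (-0.37) and the melanocortin receptors Mc3r (0.53) and Mc4r (-0.31) were not called, nor was the mu opioid receptor Oprm1 (0.07), at 4.27, 4.35 and 4.30 TPM.

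Of the 190 obesity-associated genes of the study, 186 were tested, 5 were called higher and 9 lower, and the median of -0.22 lay near that of all genes. Over all tested genes 2.41% were called higher and 5.88% lower, so the counts of this list lay near the background. The study chose this list from human genetics and not from these libraries. The higher members were Lmx1b (2.87), Tal1 (2.32), Grp (1.97), Tcf7l2 (1.41) and Zfhx3 (1.40). Tcf7l2, a transcription factor of Wnt signaling, had 48.5, 21.8 and 33.7 TPM in VTA but 249 in PVH. Sema3a, an axon guidance cue, led the lower members with 1.81, 0.478 and 0.676 TPM, below all other libraries (2.07 to 17.3), a log2 difference of -2.56 ± 0.155 (SE). Frrs1l, an auxiliary protein of AMPA receptors, also lay below all other libraries, at 33.4, 32.8 and 35.5 TPM against 44.1 to 193 (-1.28, and -0.97 after centring). The split followed the scaling, with 10 higher and 2 lower members after centring, 6 and 5 without VTA replicate 1, and 17 and 3 in edgeR on counts. Cyp17a1 and Gdf15 were listed at 0 in all VTA libraries.

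Midbrain neurons other than dopamine neurons were represented in the punches. Of 10 genes of midbrain GABA neurons, 4 were called higher, all of them transcription factors, and none lower (median 0.56). Gata3 had 11.8, 20.2 and 25.1 TPM, Tal1 4.32, 10.6 and 10.9, and Sox14 1.90, 6.81 and 6.01. PB followed VTA in Gata3 and Tal1 (11.7 and 7.20 TPM). The genes that every GABA neuron uses, Gad1, Gad2 and Slc32a1, were not called (-0.58, 0.19 and -0.41). Of 11 glutamate and red nucleus genes, 6 were called higher and none lower (median 1.34). Pou4f1 (BRN3A), a transcription factor of the red nucleus, stood at 20.6, 16.5 and 20.4 TPM and at most 6.61 elsewhere, with a log2 difference of 4.24 ± 0.332 (SE).

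The VTA libraries differed from each other in genes of neighboring nuclei. Tph2 and Slc6a4, the serotonin synthesis enzyme and transporter of raphe neurons, had 1.66, 48.0 and 13.2 TPM and 1.02, 26.5 and 7.53 TPM, and with Fev (0.866, 4.03 and 1.22 TPM) 3 of 6 raphe genes were called higher (median 0.98). VTA replicate 2 was the highest and replicate 1 the lowest in all 3 of these genes. Both CENT2 and PB had higher means than VTA in each of them. For Tph2 these were 57.4 ± 73.1 (SD, n = 4) and 43.1 ± 39.0 TPM (SD, n = 3), against 20.9 ± 24.1 in VTA (SD, n = 3). The CENT2 libraries were uneven, from 0.294 to 156 TPM of Tph2. Ucn, the urocortin of the Edinger-Westphal nucleus, had 2.66, 41.8 and 7.48 TPM in the same order, and at most 1.89 TPM elsewhere, a log2 difference of 4.07 ± 0.328 (SE). This SE uses a spread shared by all regions and does not measure the spread of the 3 Ucn values in VTA. Cartpt, which that nucleus also makes, had 126, 302 and 57.6 TPM, with 337 in VMH (log2 difference 3.08). The oculomotor, Edinger-Westphal and interpeduncular list of 12 genes held 4 higher and 3 lower members (median -0.48). The higher ones were Ucn, Cartpt, Chrna3 (2.34) and Postn (2.02). The lower ones included the motor neuron genes Isl1 (-2.25) and Slc18a3 (-1.64, not called after centring or without VTA replicate 1), and the cholinergic marker Chat was at 0.396, 0.311 and 0.531 TPM. Phox2a, a defining factor of oculomotor motor neurons, was listed at 0 in all VTA libraries.

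Several markers of other regions were listed at 0 or were low in VTA. The noradrenaline and adrenaline genes Dbh, Pnmt and Phox2a were listed at 0 in every VTA library, and 2 of the 6 genes of that list were called lower, 0 after centring and 1 without VTA replicate 1. Dbh was called lower with all libraries but neither after centring nor without VTA replicate 1. Of 11 genes of cortical glutamate neurons 9 were called lower (median -1.69), or 8 without VTA replicate 1, and of 14 cerebellar genes 11 lower and En2 higher (median -2.01). After centring the lower genes of these lists numbered 7 and 11, and in edgeR without VTA replicate 1 they numbered 6 and 9. Slc17a7, the vesicular glutamate transporter of cortex and cerebellum, had 0.0372, 9.33 and 1.52 TPM against 0.512 to 1598 elsewhere (log2 difference -5.53 ± 0.454, SE). VTA replicate 2 again held the most. Of 15 hypothalamic genes 7 were called lower and none higher (median -0.82), with Oxt listed at 0 in VTA, Hcrt at 0.465, 0.502 and 2.21 TPM and Pmch at 3.37, 3.25 and 5.34, and the number was 4 after centring and 4 without VTA replicate 1, with Pmch lost in both and Hcrt in the second, in which Nkx2-1 was gained. In edgeR on counts 3 of the 15 were higher and 1 lower, or 2 and 0 without VTA replicate 1, so the split of calls in this list depended on the test, while its median stayed negative (-0.48 and -0.62 in edgeR). Its summed level in VTA was 31.7, 23.2 and 17.8 TPM, near the median of 23.0 elsewhere. Of 11 striatal genes Six3 was called higher (1.74) and Drd1 lower, and of 9 supramammillary and mammillary genes only Lmx1b was called, while Foxb1 (4.06, 2.50 and 2.73 TPM) was not (0.88). In that list 2 genes were called higher after centring, 5 in edgeR on counts and 4 in edgeR without VTA replicate 1. Nkx2-1 of that list had 3.76, 0 and 0.0900 TPM, and it was called lower (-1.49) without VTA replicate 1. None of 12 hindbrain Hox genes was called (median -0.76), and their summed level was at most 1.20 TPM in VTA and reached 415 TPM in DVC. The part of neighboring nuclei in the values of the single VTA libraries was not tested.

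**Figure D4:**
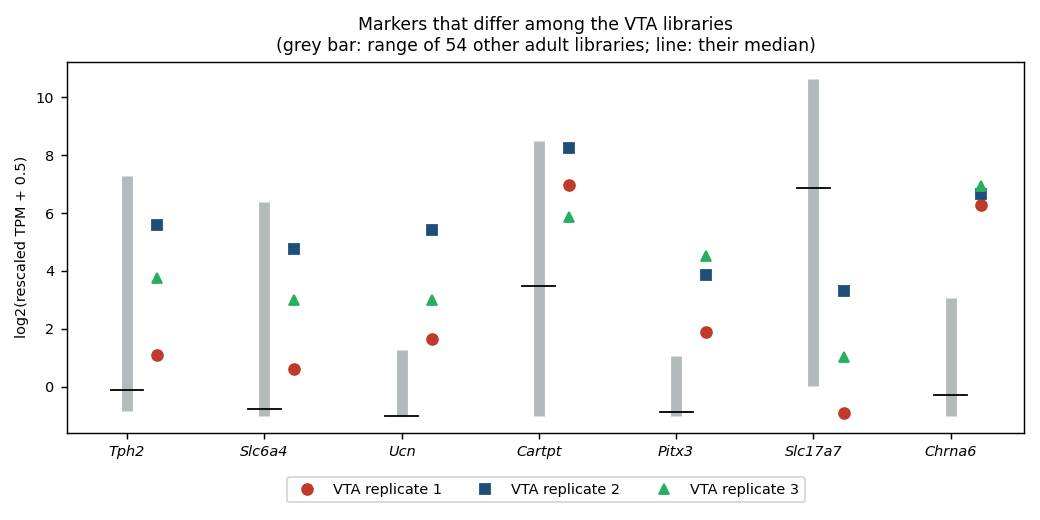
Values of 7 genes on the axis of log2(rescaled TPM + 0.5) are shown for VTA replicates 1, 2 and 3 beside the range (grey bar) and median (line) of the 54 other adult libraries. The raphe genes Tph2 and Slc6a4, Ucn, Cartpt and the cortical gene Slc17a7 are highest in VTA replicate 2 (Tph2 at 48.0 TPM), Pitx3 is highest in replicate 3 (22.4 TPM), and Chrna6 differs little (77.2 to 121 TPM).

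Myelin stood out among the glial genes. Of 18 myelin and oligodendrocyte genes, 13 were called higher and none lower, with a median of 1.36, and 17 were called without VTA replicate 1. Their summed level was 13826, 17481 and 19538 TPM in VTA against 858 to 22631 elsewhere, the highest in the cerebellar nuclei (CBN). Mbp, myelin basic protein, had 8220.0, 8485 and 11237 TPM, with a log2 difference of 2.10 ± 0.190 (SE). Against PB, LHA and the nucleus of the solitary tract (NTS) Mbp was not called (0.62, 0.51 and 0.24). The oligodendrocyte precursor genes were not part of this, with Enpp6 alone of 6 called (1.34) and Pdgfra at -0.01.

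Of 9 genes of neurofilaments and large projection neurons, 5 were called higher and none lower (median 1.07), and 7 without VTA replicate 1. Spp1 (2.58), Nefh (2.36), Nefm (2.02) and Nefl (1.46) led them, and CBN had more of each than VTA. Nefh, the heavy neurofilament subunit, was at 668, 418 and 471 TPM in VTA and at 615 in CBN.

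Few genes of the other cell classes were called. Of 12 astrocyte genes 1 was called higher (2 without VTA replicate 1), the GABA transporter Slc6a11 (1.08), and 1 lower, the glutamate transporter Slc1a3 (-1.497), which had 99.9, 85.3 and 95.4 TPM against 88.6 to 794. None of 11 microglia genes, 7 meningeal genes or 5 red cell genes was called, with medians of -0.16, -0.18 and -0.62. Of 12 vascular genes only Pecam1 was called (1.18), and it was lost without VTA replicate 1 (0.44), which held 132 TPM against 22.7 and 34.1 in the others. Of 9 ependymal and choroid plexus genes 3 were called lower (median -1.86), or 2 without VTA replicate 1, among them Tmem212, listed at 0, and Ccdc153 (1.61, 0.349 and 0 TPM). None of 17 nuclear genes of the respiratory chain was called (median -0.25), and the 13 mitochondrially encoded ones were left out of the test by design. Their summed deposited TPM were 396229, 60247 and 141807 in VTA and 55508 to 134531 elsewhere.

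Of 13 immediate early and heat shock genes, 7 were called lower and none higher (median -1.02). All 7 were immediate early genes, which neuronal activity induces, and they were Nr4a1 (-1.76), Junb (-1.57), Ier2 (-1.52), Egr1 (-1.46), Fos (-1.44), Npas4 (-1.27) and Fosb (-1.02). Egr1 had 18.1, 13.5 and 18.3 TPM in VTA and 270 in the frontal pole cortex (FRP). Fos had 4.15, 19.7 and 21.2 TPM, and without VTA replicate 1 its difference was -0.71 and not called, with 5 of the 13 called. After centring 5 were called as well, without Npas4 (-0.96) and Fosb (-0.70). With both changes together 2 were called, and 2 in edgeR without VTA replicate 1. The 4 heat shock genes Hspa1a, Hspa1b, Dnajb1 and Hspa8 were not called (-0.13, -0.74, -0.47 and 0.26). The summed level of the list, most of it Hspa8, was 4134, 5143 and 4874 TPM in VTA and had a median of 4194 elsewhere.

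**Figure D5:**
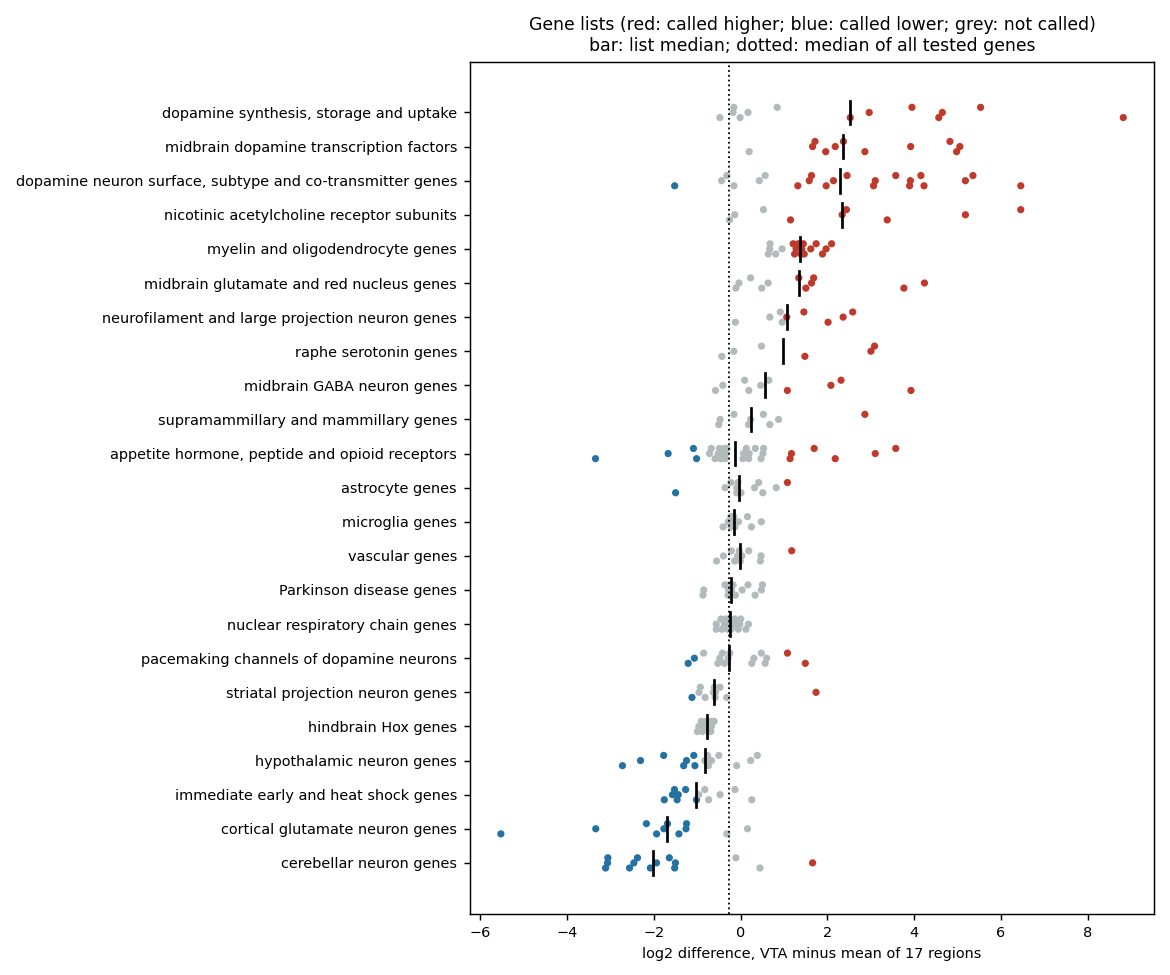
Points are the log2 differences (VTA minus the mean of 17 regions) of the tested genes of each list, red for genes called higher, blue for lower and grey for not called, with a bar at the list median and a dotted line at the median of all tested genes (-0.27). The 3 dopamine lists and the nicotinic list have medians of 2.30 to 2.53, and cerebellar and cortical lists have the lowest medians (-2.01 and -1.69).

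Among the genes called lower with every VTA library below every other library, Gabrd had the largest decrease. This gene encodes the delta subunit of extrasynaptic GABA-A receptors and had 0.109, 0.414 and 0.229 TPM in VTA, against 0.593 to 257 elsewhere with a median of 29.4. The log2 difference was -4.81 ± 0.246 (SE), with an adjusted p of 9.36e-20 (limma). Against PB and NTS the differences were smaller, at -1.10 and -0.92, the second short of the size limit. The next by size were AC110816.1 (-2.99), Nab2, a corepressor of EGR factors (-2.58), Sema3a, Pcdhgc5, a clustered protocadherin (-2.53), Ankrd33b (-2.20), the collagen gene Col7a1 (-1.94), the axonemal dynein gene Dnah6 (-1.84), Cnr1 and Syne1, which encodes nesprin-1 (-1.54). AC110816.1 was listed at 0 in VTA replicate 1 and at 28.8 and 29.4 TPM in the others, and without replicate 1 its difference was -1.03. Pcdhgc5 had 5.70, 5.41 and 5.02 TPM, with 138 in ACA. Nab2 had 2.14, 5.46 and 4.76 TPM, with 103 in culmen lobules IV-V (CUL4-5).

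The regions closest to VTA over all tested genes were PB (r = 0.974 between region means), NTS (0.973) and LHA (0.972), and the farthest was CUL4-5 (0.919). These are descriptions over genes, which are not independent. Against PB, 220 genes (1.14%) were higher in VTA and 717 (3.70%) lower. Against LHA the numbers were 281 (1.45%) and 649 (3.35%), and against NTS 316 (1.63%) and 500 (2.58%). These comparisons share the VTA libraries. Dopamine genes separated VTA from all 3 regions. Slc6a3 was higher by 8.21 on the log2 scale against PB, 7.02 against LHA and 9.56 against NTS, Th by 3.07, 4.94 and 6.03, and Foxa2 by 5.15, 4.79 and 5.01. Outside the dopamine lists, C1ql2 and Pou4f1 were among the 44 genes higher than in each region. Ntsr1, of the dopamine neuron surface list, was among them too. Some other genes were called against only part of the regions. Gata3, Tal1 and Lmx1b were not called against PB (0.69, 0.16 and 0.31), and Cartpt, Otx2 and Slc17a6 were not called against LHA (0.13, 1.33 and 0.07). Dbh was lower in VTA than in PB, and Hcrt (-10.11) and Pmch (-10.14), the orexin and melanin-concentrating hormone genes of LHA neurons, were lower than in LHA.

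The largest spread among the 3 VTA libraries, over genes with a mean of at least 5 TPM there, belonged to pseudogenes. Gm28437, an unprocessed pseudogene on chromosome 1, had 1.32, 10356 and 6426 TPM, against 7942 to 14503 elsewhere. Gm10123 had 0, 605 and 521 TPM, Gm10443 0, 675 and 243, Gm12338 0, 308 and 0, and Gm15516 59.95, 586 and 0. VTA replicate 1 was at or near the bottom in these except Gm15516, and the differences of Gm28437, Gm10123 and Gm10443 were -0.43, -0.07 and -0.60 without it. Reads of such copies can be shared with their parent genes, so these levels are uncertain. Pseudogenes made up 13.4% of tested genes, 21.03% of genes called higher and 11.6% of genes called lower.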

How the data were processed

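Single reads (base calls by CASAVA 1.8.2) were assigned by the authors to GRCm38 cDNA with Kallisto, and the resulting estimated counts were deposited per transcript without normalization. The authors summed TPM over the transcripts of a gene and deposited these gene TPM for 34677 genes. Libraries were strand-specific, and whether the counting used strand is not given in the sources used here.

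Here TPM were rescaled without mt- genes, and log2(TPM + 0.5) was tested with limma 3.58.1 (trend, 1 mean per region) in R 4.3.3 for VTA minus the mean of 17 region means. Fold changes on this scale understate the change of low genes. The SE and p-values use 1 spread per gene, shared by the libraries of all regions. They do not measure the spread of the VTA pools alone. A gene was tested with at least 1 TPM in 2 of 57 libraries and called at a Benjamini-Hochberg adjusted p under 0.05 and an absolute log2 difference above 1. Estimated counts summed per gene and rounded were used only in alternatives, with edgeR 4.0.16 (quasi-likelihood) and DESeq2 1.42.0. On simulated data limma called 188 of 200 changed genes and 1 unchanged gene of 19356 genes, and edgeR called 178 of 200 and 5 unchanged genes of 17332. The simulated noise was independent and no library deviated as VTA replicate 1 did. These numbers therefore do not measure the rate of wrong calls in the real libraries.

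Named are Th and Slc6a3, the 15 largest increases and 10 largest decreases among called genes whose libraries did not overlap, with the genes that enter or leave without VTA replicate 1, the called members of each list with the largest and smallest difference and members whose role is described, and the 5 genes with the largest spread in VTA. The comparison, members and lists were chosen with earlier results of these data known. Lists were described by counts and medians, with no set test. The counts per list use the whole-table adjustment. Replicate numbers were not used as pairs. Alternatives were other pseudocounts and filters, mt- genes kept, median centring, 2 groups of libraries, a replicate block, regions left out and each library left out. Of the sample columns 0 were left unmapped. Gene positions are from GENCODE release M21, promoters from RefSeq. Some members of the lists are counted but not reported here by name.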

Additional observations from a re-analysis of the deposited data

Results flagged for a closer look

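The embryonic midbrain libraries (M, E14.5, n = 2) are in no comparison above. Of the 15 genes with the largest non-overlapping increases in adult VTA, 8 were higher in both M libraries than in every one of the 11 other embryonic and mESC libraries, and this difference was not tested. The share of all genes with this pattern is not given here, so the count has no background to be set against. The 15 include Dlk1 and AC165954.1, which had the same values. The 5 of these 8 genes with a mean of at least 5 TPM in M are given first. Foxa2 had a mean of 16.7 TPM in M (13.7 and 19.8) against at most 0.787 elsewhere. En1 had a mean of 61.1 TPM, with at most 35.6 in the embryonic hindbrain. C1ql2, a secreted synaptic protein, had a mean of 12.8 TPM against at most 2.01. The Foxa1 mean was 11.0 TPM, and M replicate 1, with 6.59 TPM, lay close to the 6.56 TPM of an embryonic hypothalamus library. The Pou4f1 mean was 88.7 TPM against at most 46.0 elsewhere. The other 3 were low in M, with means of 2.71 TPM for Slc6a3 (at most 0.305 elsewhere), 1.67 for Chrna6 (at most 0.0814) and 0.727 for Gucy2c (at most 0.386). Th, at 24.3 TPM in M, did not stand above the embryonic hypothalamus (up to 36.0 TPM).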

How the results depend on the processing

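The 28 named genes with the largest differences kept direction and call in 466 of 470 alternative values and lost the call in 4. They were picked from the same libraries by the size of their differences, which favors keeping the call. This count is therefore no test of their calls. Over 527 list and named genes, 8360 of 8920 values kept both, 324 lost the call, 227 gained it and 9 turned. The turned values were Gm10123 (0.0594 in edgeR without VTA replicate 1 and 0.0982 centred without it), Lars2 (0.0744 and 0.128 under the same settings), Trh (0.12, edgeR without VTA replicate 1), Nkx2-1 (3.24 in edgeR and 3.27 in DESeq2), and Cbln3 and Car8 (0.0882 and 0.0153 without the cerebellar regions).

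The counts moved more. Genes higher in VTA numbered 855 after median centring, 231 with 2 groups of libraries, 1190 in edgeR, 1074 in DESeq2 and 835 in edgeR without VTA replicate 1, and 442 to 586 with single libraries left out. Genes lower numbered 1729 with a pseudocount of 0.1, 1908 with mt- genes kept, 465 centred, 511 with 2 groups, 717 in edgeR, 617 in edgeR without VTA replicate 1 and 419 centred without it (chosen after seeing the data), and 675 to 2156 with single libraries left out (VTA replicates 1 and 2). Genes higher than in each region numbered 87 in edgeR, 75 in DESeq2 and 35 to 91 with libraries left out. Genes with all VTA libraries above the rest numbered 34 with mt- genes kept, 117 centred and 58 to 238 with libraries left out. Genes below the rest numbered 18 centred, 198 without the cerebellar regions and 91 to 861 with libraries left out. The mt- share differed by 2.06 to 18.9 points with libraries left out, the lowest without VTA replicate 1. The cause of these shifts was not tested. The median difference of all genes was -0.27, 0.04 centred and -0.15 without VTA replicate 1.

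With the replicate number as a block, 468 genes were higher, 1154 lower and 43 higher than in each region. Deviations of VTA libraries correlated with those of the same number elsewhere at 0.0526, 0.103 and 0.0720, and each correlated best with its own number, which is a hint from the data and not the design. Depth limits genes near 1 TPM, and the 3 pools limit the precision.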

Other observations

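Of the 44 genes higher in VTA than in each other region, several belong to no list above, and the following were chosen after their values were seen. Cxcl13, a chemokine, had 9.16, 4.11 and 8.63 TPM in VTA and at most 0.905 TPM elsewhere, with a log2 difference of 3.69 ± 0.151 (SE). Fgf20, a fibroblast growth factor, had 4.16, 5.18 and 5.08 TPM against at most 1.46. Igf1, insulin-like growth factor 1, had 27.4, 13.1 and 22.9 TPM against at most 9.23 in CBN. Slc39a4, a zinc transporter, had 5.69, 11.0 and 10.4 TPM against at most 5.21. In these 4 genes the groups did not overlap. Rln3, the relaxin-3 gene of the nucleus incertus, had 1.87, 17.1 and 36.2 TPM, and the highest library elsewhere was from PB, above VTA replicates 1 and 2, so its libraries overlapped. Trav3n-3 and Trav3d-3, T cell receptor segments, had identical values in every VTA library (8.28, 9.69 and 8.04 TPM), so their reads cannot be told apart.

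Some of the 44 genes were carried by VTA replicates 1 and 3, or mainly by replicate 1. Rps12-ps4 had 132, 0 and 112 TPM, Gm12254 77.3, 0 and 44.9, and Gm10074 23.9, 0 and 15.7. Hnrnpll had 1139, 99.4 and 228 TPM against at most 210 elsewhere, and Trim2 had 14524, 1046 and 2567 against at most 2252 elsewhere. For Hnrnpll and Trim2, VTA replicate 3 lay only a little above the highest library elsewhere. In these 5 genes, chosen after their values were seen, VTA replicate 1 was the highest and VTA replicate 2 the lowest. Gm2389, also among the 44 genes, was highest in VTA replicate 3 (7.93, 0 and 48.3 TPM). The part of the mt- share in these values was not tested.

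In the embryonic midbrain libraries, Pitx3 had a mean of 10.2 TPM, Gata3 113, Otx2 124 and En2 70.1. Both midbrain libraries lay above all other embryonic and mESC libraries in each of these. The dopamine transcription factors Nr4a2, Lmx1a, Lmx1b, Sox6 and Bnc2 did not show this. The share of all genes with this pattern is not given here, and the pattern was not tested. Lmx1b had a mean of 14.3 TPM against up to 36.7 in the embryonic hindbrain, and Sox6 10.9 against up to 36.2 in the embryonic forebrain. Ucn was listed at 0 in both midbrain libraries and in every other embryonic and mESC library.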
